A study of Mus musculus with 10 samples.

Results

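The nuclear genes for subunits of the mitochondrial respiratory chain and ATP synthase were followed in platelets that were sorted from mouse blood into Tomato+ and Tomato- fractions. Members were all rows of the deposited count table whose symbols begin as those of the subunit families do: Nduf followed by a, b, c, s or v and a digit (complex I), Sdha to Sdhd (complex II), Uqcr and Cyc1 (complex III), Cox4 to Cox8 (complex IV) and Atp5 (complex V). Symbols containing -ps were left out. The rule took 85 of 23420 genes: 37 for complex I, 4 for complex II, 9 for complex III, 18 for complex IV and 17 for complex V. The rule used names and no measured values. Of the complex V rows, Atp5s and Atp5sl carry the family name but do not encode a subunit of the enzyme. Ndufa4 and its relative Ndufa4l2 were counted with complex I by symbol, although Ndufa4 was later found in complex IV.

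The respiratory chain passes electrons from NADH (complex I) and succinate (complex II) through complex III and cytochrome c to oxygen (complex IV), and pumps protons that drive ATP synthesis by complex V. Most of its subunits are encoded in the nucleus and imported, while a small hydrophobic set is encoded in mitochondrial DNA. Platelets are fragments that megakaryocytes shed into the blood. They have no nucleus, carry a few mitochondria and an inherited pool of messenger RNA, and use both glycolysis and respiration.

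Platelets came from the peripheral blood of adult mice, and the Tomato+ and Tomato- groups held 5 libraries each, numbered 1 to 5 in their titles. Tomato is a red fluorescent reporter protein. The labels name no driver of the reporter, no strain, no exact age and no treatment. Complementary DNA was made from polyadenylated RNA by a Smart-seq+ protocol, with no molecular identifiers in the counts. The labels name no animals behind the libraries. The p-values below therefore measure only how far these libraries vary, and that variation may be technical.

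Libraries held 5411417 to 16179973 counts, and 807 to 2450 genes had a count. Replicates 1, 2 and 5 of Tomato- had fewer than 1000 detected genes each. All 6 platelet markers examined (Pf4, Ppbp, Itga2b, Itgb3, Gp9 and Tubb1) had counts in every library, with 36512 to 52691 counts per 1000000 counts of the library (CPM) in sum in Tomato+ and 38915 to 51219 CPM in Tomato-. Of 8 leukocyte marker rows, 3 had any count, with 0 to 239.8 CPM in sum in Tomato+ and 0 to 21.9 CPM in Tomato-, and Cd3e, Cd79a, Ms4a1, S100a8 and Csf1r were at 0. Of 5 red cell marker rows, 3 had any count, with 1.38 to 338 CPM in sum in Tomato+ and 47.7 to 3440.2 CPM in Tomato-, and Hba-a1 and Hba-a2 were at 0. Endothelial markers, some of which platelets also carry, had 229.7 to 1501 CPM and 130.3 to 1725 CPM, with Cdh5 at 0. The leukocyte list left out Lyz2 and Itgb2, which leukocytes also express. Lyz2 had means of 7672 CPM (Tomato+) and 7857 CPM (Tomato-), and Itgb2 of 1117 and 1246 CPM. The part of other cells in the levels below was not tested.

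Sequence upstream of the members was examined because the known regulators NRF1 and GABPA, an ETS factor, bind near the start sites of many of these genes. RefSeq windows of GRCm38.p6 were found for 66 of the 85 members, 71 windows in all, and the 250 bases before each start were searched on both strands. The NRF1 core (GCGCA, any base, then GCGC) lay in 14 of 71 member windows (19.7%) and in 3.74% of all 32851 windows of the same length. The ETS motif CCGGAAG lay in 12 member windows (16.9%) and in 6.91% of all windows. A YY1 core, AAGATGGC, lay in 1 member window and in 1.56% of all windows. The 3 motifs were searched separately and share no run of letters that would make 1 match count for another. Among windows of members with counts in 5 or more libraries, 2 of 25 held the NRF1 core and 7 held the ETS motif. For members with counts in 1 to 4 libraries these were 9 and 4 of 30. Among windows of members with no count in any library, 3 of 16 held the NRF1 core and 1 held the ETS motif. The NRF1 share thus had no steady order with detection. The ETS share was 28%, 13.3% and 6.25% in the same order, from few windows, and was not tested. A match is a run of letters and not a measured binding site.

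Upstream windows are shown, for the member with the highest level (Cox5a), one with counts in every library (Cox6b1), one with both motifs (Cox6a1) and one with an NRF1 core and no count in any library (Ndufa8). Capitals mark the motifs, which may read on the other strand (CTTCCGG is the ETS motif so read), and each run reads 5′ to 3′ and ends at the base before the start site.
Cox5a (GRCm38.p6, chr9:57520982-57521231, plus strand): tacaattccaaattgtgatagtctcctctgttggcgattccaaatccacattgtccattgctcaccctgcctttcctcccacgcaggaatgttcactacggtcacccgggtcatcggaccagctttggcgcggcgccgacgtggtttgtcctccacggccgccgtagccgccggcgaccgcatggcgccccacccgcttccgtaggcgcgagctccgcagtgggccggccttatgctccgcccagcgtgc
Cox6b1 (GRCm38.p6, chr7:30626115-30626364, minus strand): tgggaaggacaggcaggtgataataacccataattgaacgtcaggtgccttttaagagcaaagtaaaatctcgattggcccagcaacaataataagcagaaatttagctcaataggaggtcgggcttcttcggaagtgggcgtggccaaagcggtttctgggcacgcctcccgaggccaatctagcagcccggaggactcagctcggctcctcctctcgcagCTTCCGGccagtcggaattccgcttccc
Cox6a1 (GRCm38.p6, chr5:115348959-115349208, minus strand): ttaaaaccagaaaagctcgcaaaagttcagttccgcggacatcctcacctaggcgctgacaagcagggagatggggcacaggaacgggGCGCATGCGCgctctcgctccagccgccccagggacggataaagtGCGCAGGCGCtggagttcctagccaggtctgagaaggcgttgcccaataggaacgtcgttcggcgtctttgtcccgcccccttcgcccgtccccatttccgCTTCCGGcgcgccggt
Ndufa8 (GRCm38.p6, chr2:36049339-36049588, minus strand): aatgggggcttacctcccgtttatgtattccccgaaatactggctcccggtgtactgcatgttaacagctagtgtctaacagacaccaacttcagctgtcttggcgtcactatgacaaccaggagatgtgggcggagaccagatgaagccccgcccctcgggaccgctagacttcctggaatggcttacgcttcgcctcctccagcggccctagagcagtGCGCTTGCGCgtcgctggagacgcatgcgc
Start sites here are the RefSeq ones, and the GENCODE annotation used for gene lengths places them elsewhere. In it, Cox6b1, Cox6a1 and Ndufa8 begin inside the windows shown. By GENCODE, the ETS motifs of Cox6b1 and Cox6a1 and the marked NRF1 core of Ndufa8 lie inside the genes. The Cox5a window held neither motif. In Cox6b1 the ETS motif began 28 bases before the start site. In Cox6a1 the NRF1 cores began 162 and 117 bases before the start and the ETS motif 16 bases before it. In Ndufa8 the NRF1 core began 30 bases before the start.

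Respiratory chain transcripts were a minor and patchy part of platelet RNA, in which a subunit was either absent from a library or present with many counts. Of the 85 members, 59 (69.4%) had a count in any library, 28 in at least 5 libraries and 3 in all 10. The other 26 had none. Over all 23420 rows, 4692 had one, 1182 of them in at least 5 libraries and 264 in every library. Among rows with any count, 25.2% had one in at least 5 libraries, against 28 of 59 members. Of the 850 combinations of member and library, 573 had 0 counts, 12 had 1 to 9 counts and 265 had 10 or more. A count was present in 32.6% of these combinations, and in 6.36% of the combinations over all rows, so the table was sparse for most genes. Patchy detection was therefore not particular to the members, which were detected more often than the average row. The median count where a member was detected was 985. A count of 0 would allow a level of up to 0.185 to 0.554 CPM by library, which covers counting error only. Levels of one member swung widely inside a group, 0 included, so this limit applies to a library and not to the platelets it came from.

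**Figure D1:**
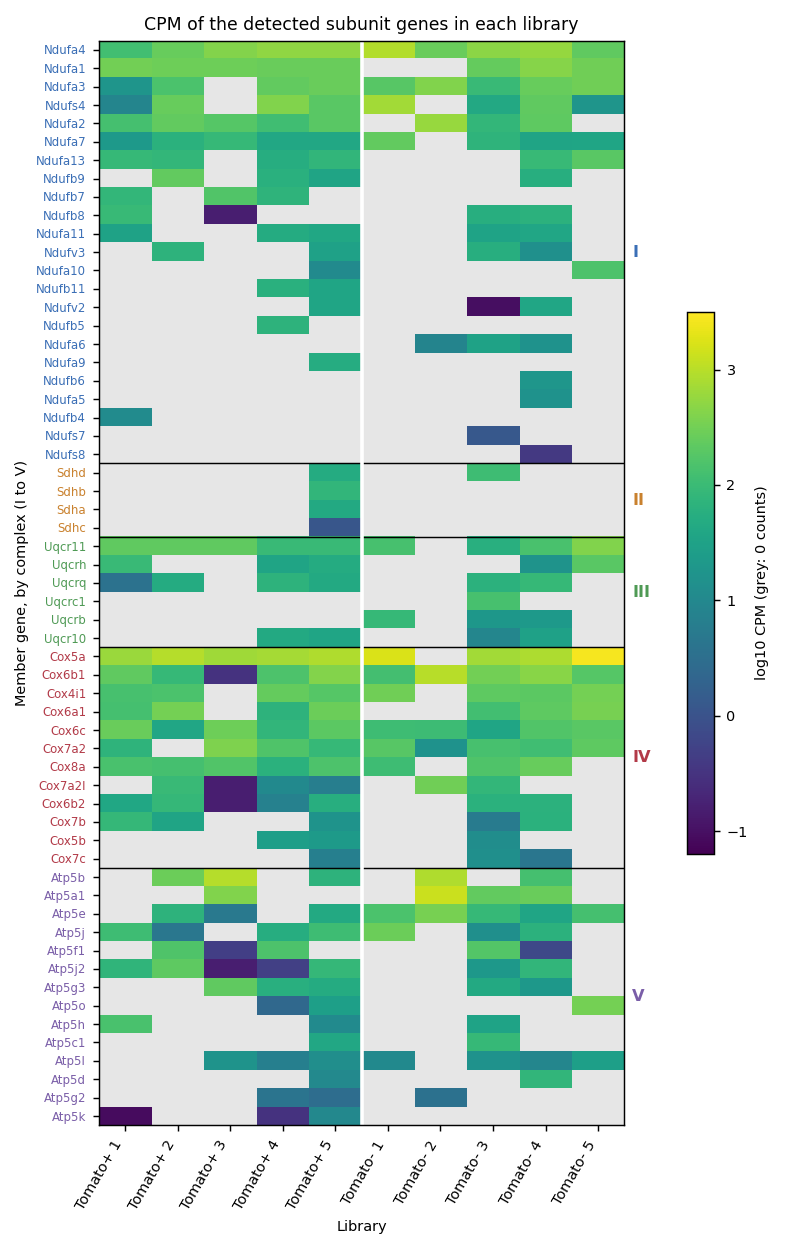
Level of the 59 detected members in each library, as log10 CPM (colour), with libraries in columns and genes in rows ordered by complex and mean level; grey marks 0 counts. Filled rows are few, with 3 genes (Ndufa4, Cox6b1 and Cox6c) detected in all 10 libraries, and the complex II rows are filled almost only in Tomato+ replicate 5.

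Detection by complex spanned 12.5% to 47.2% of combinations. Over member and library combinations, complex IV had counts in 47.2%, complex V in 37.6%, complex III in 31.1%, complex I in 25.7% and complex II in 12.5%. Complex IV had 10 of 18 members with counts in at least 5 libraries, complex V had 7 of 17, complex III had 3 of 9, complex I had 8 of 37 and complex II had 0 of 4. By the other measure, any count at all, complex II was complete with 4 of 4. That rested on Tomato+ replicate 5, without which 1 of its 4 members had a count.

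**Figure D2:**
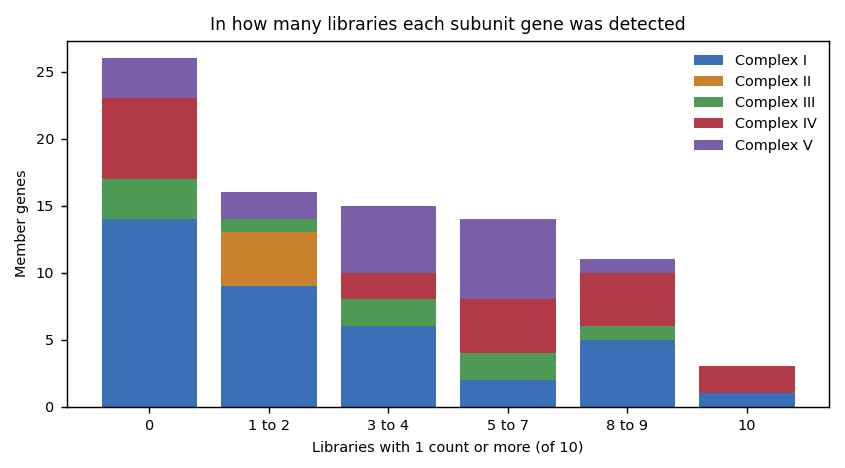
Number of member genes (vertical axis) by the number of libraries with a count (horizontal axis), stacked by complex. The leftmost bar holds the 26 members with no count, 14 of them from complex I, and the rightmost bar the 3 members found in all 10 libraries.

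Subunits that carry the catalysis were seen in few libraries. Of 12 core subunits, among them Ndufv1, Sdha, Uqcrfs1, Cyc1 and Atp5b, 5 had no count in any library and 1, Atp5b, had counts in 5. They were detected in 15 of 120 combinations with libraries (12.5%), against 262 of 730 (35.9%) for all other members. Over all rows of the table the share was 6.36%. These shares were not tested, since members are not replicates. Core members were also longer, with a median exon length of 1793 bases against 861.

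Across the 85 members, the rank correlation of exon length with the number of libraries was -0.29, a description with no test, since the genes share the same 10 libraries. Of 17 members under 600 bases, 10 (58.8%) had counts in 5 or more libraries. Of 13 members of 2000 bases or more, 1 (7.69%) did. Over 19301 protein-coding rows with a length, the same rank correlation was 0.078, with 8.31% of rows under 600 bases and 5.53% of rows of 2000 bases or more at that level of detection.

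Levels of different genes were compared as CPM per 1000 bases of exon (CPM per kb). Complex IV had the highest mean over its members, 176 ± 67.1 CPM per kb (SD over 10 libraries), and ranked first in 10 of 10 libraries. Complex I followed with 63.5 ± 13.5, complex III with 56.6 ± 36.0, complex V with 39.9 ± 25.3 and complex II with 5.36 ± 11.5 CPM per kb. Complexes I and III, III and V, and I and V differed by less than the larger SD of each pair. With Ndufa4 counted in complex IV, where it was later placed, complex I had 46.1 CPM per kb and ranked below complex III. Ndufa4l2 stayed with complex I there. The means rested on a few high members. The median member had 31.5 CPM per kb in complex IV, 23.3 in V, 17.6 in III, 4.21 in II and 2.76 in I, so that complex I was last by this value. The lead of complex IV leaned on Cox5a. Without it, the complex had 96.7 ± 25.1 CPM per kb and ranked first in 8 of 10 libraries. This check and the move of Ndufa4 were chosen after seeing the data.

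**Figure D3:**
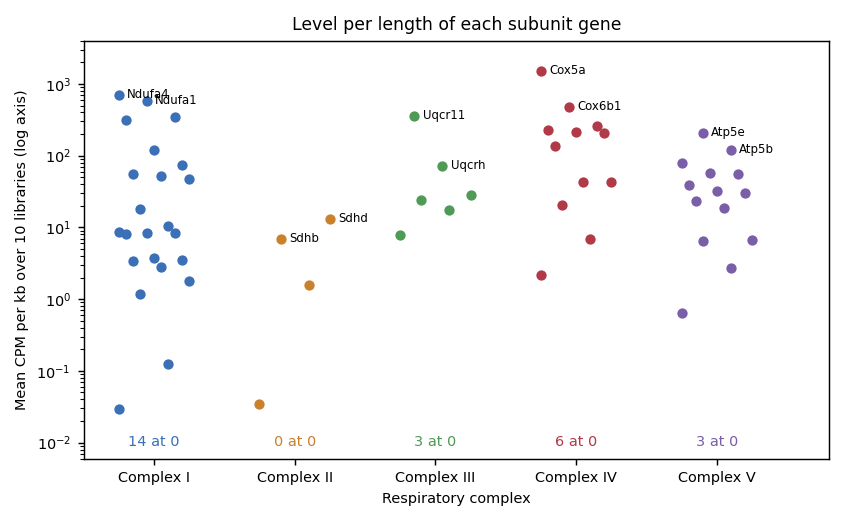
Mean CPM per kb over the 10 libraries (logarithmic vertical axis) of each member gene, by complex (horizontal axis), with the 2 highest genes of each complex named and the number of members at 0 printed below. Members of 1 complex spread widely on the log axis, with Cox5a highest at 1531 CPM per kb.

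In complex I, the NADH dehydrogenase, the best detected members were small accessory subunits. Ndufa4, at 691 ± 363 CPM per kb (SD, n = 10), had counts in all libraries. Its levels were 117, 261, 424, 529.7 and 531 CPM in Tomato+ replicates 1 to 5 and 901, 262, 488, 573 and 224 CPM in Tomato- replicates 1 to 5. The groups overlapped over nearly their whole range. Ndufa1, a membrane-arm subunit needed for assembly of the complex, had 577 ± 327 CPM per kb. It lay between 266 and 317 CPM in all 5 Tomato+ libraries. In Tomato- it was at 0 in replicates 1 and 2 and at 248, 435 and 298 CPM in replicates 3 to 5. The Tomato+ values were therefore tight (SD 20.7 CPM) and the Tomato- values were not (SD 192 CPM). Ndufa3 followed with 343 ± 230 CPM per kb and counts in 9 libraries, and Ndufa2 with 310 ± 301 CPM per kb and counts in 8.

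The electron-carrying core of complex I was nearly undetected. Ndufv1, which binds NADH and the flavin, and Ndufs1, an iron-sulfur protein, had 0 counts in all 10 libraries. Ndufs7 had 13 counts in Tomato- replicate 3 alone and Ndufs8 had 4 counts in Tomato- replicate 4 alone. Ndufs3 had 0 counts and Ndufv2 had counts in 3 libraries. The 7 nuclear core subunits were detected in 5 of 70 combinations with libraries (7.14%), and the other 30 complex I members in 90 of 300 (30.0%), a grouping chosen after the values were seen and not tested. Over all rows of the table the share was 6.36%, close to that of the core. The 7 core members were also longer, with a median exon length of 1774 bases against 868. Ndufs4, an accessory subunit at the edge of the peripheral arm, was an exception among the Ndufs genes, with counts in 8 libraries and up to 705 CPM in Tomato- replicate 1. Among the other complex I members with no count in any library were Ndufb2, Ndufb3, Ndufb10, Ndufa8, Ndufa12, Ndufa4l2, Ndufs5, Ndufs6, Ndufc1 and Ndufc2.

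Complex II, succinate dehydrogenase, was seen in 2 libraries. All 4 subunits had counts in Tomato+ replicate 5, the library with the most detected genes: the flavoprotein Sdha at 45.6 CPM, the iron-sulfur protein Sdhb at 78.2 CPM, and the membrane anchors Sdhd at 49.6 and Sdhc at 1.13 CPM. Tomato- replicate 3 had Sdhd alone, at 110.04 CPM. The other 8 libraries had 0 counts for every subunit.

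In complex III, the cytochrome bc1 complex, Uqcr11 was the 1 member with counts in more than 6 libraries. This small accessory subunit had 359.5 ± 257 CPM per kb (SD, n = 10). Its levels were 221, 222, 224, 94.9 and 97.9 CPM in Tomato+ and 136, 0, 57.2, 139.7 and 407 CPM in Tomato-. Tomato- held both the lowest and the highest library. The hinge protein gene Uqcrh had counts in 5 libraries (72.3 ± 118 CPM per kb) and Uqcr10 in 4 (28.3 ± 41.9 CPM per kb). The redox subunits Uqcrfs1 (the Rieske iron-sulfur protein) and Cyc1 (cytochrome c1) and the core protein Uqcrc2 had 0 counts in every library, and Uqcrc1 had counts in Tomato- replicate 3 alone, at 138 CPM. Uqcrb had counts in 3 Tomato- libraries and no Tomato+ library.

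Complex IV, cytochrome c oxidase, was led by Cox5a, a matrix-side subunit and the most abundant member by CPM in 8 of 10 libraries. It took 19.9% of the members' summed CPM on average. Cox5a (chromosome 9, 57521274 to 57532426, plus strand, GENCODE coordinates on GRCm38) had 625, 935, 680.5, 749 and 861 CPM in Tomato+ replicates 1 to 5. In Tomato- it had 1729 CPM in replicate 1, 0 in replicate 2, 718 and 838 CPM in replicates 3 and 4 and 2741 CPM in replicate 5. The values of 0, 1729 and 2741 CPM belonged to the Tomato- libraries with fewer than 1000 detected genes, and the other 7 libraries lay between 625 and 935 CPM.

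Cox6b1, which faces the intermembrane space, was found in all libraries, at 225, 87.8, 0.307, 152 and 418 CPM in Tomato+ and 123, 972, 321, 464 and 182 CPM in Tomato-. The value in Tomato+ replicate 3 came from 2 counts. Cox6c was also found in all libraries, at 265, 37.6, 293, 77.1 and 205 CPM in Tomato+ and 111, 103.7, 37.1, 168 and 197 CPM in Tomato-. Cox4i1, Cox6a1, Cox7a2 and Cox8a had counts in 7 to 9 libraries each, with 231 ± 146, 263 ± 242, 208 ± 169 and 216 ± 144 CPM per kb.

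Of the tissue isoforms of complex IV, the widely expressed forms were detected and most others were not. The widely expressed forms Cox4i1, Cox6a1, Cox6b1, Cox7a2, Cox7b and Cox8a all had counts, in 5 to 10 libraries. The counterparts known from heart and skeletal muscle, Cox6a2, Cox7a1 and Cox8b, had 0 counts in all 10 libraries, as did Cox4i2, known from lung, and the testis forms Cox7b2 and Cox8c. Ndufa4l2, the hypoxia-induced relative of Ndufa4, also had 0 counts. Cox6b2, known as the testis form of Cox6b1, was the exception, with counts in 5 Tomato+ and 2 Tomato- libraries. Its levels were 40.3, 84.0, 0.154, 7.29 and 55.1 CPM in Tomato+ and 62.9 and 66.2 CPM in Tomato- replicates 3 and 4, with 0 in the others. The value of 0.154 CPM came from 1 count. The coding sequences of Cox6b1 and Cox6b2 aligned over 34.1% of the Cox6b1 sequence at 77.3% identity, below the limits used here for a near-identical copy.

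In complex V, the ATP synthase, both large subunits of the catalytic head were absent from 5 or more libraries and high in others. Atp5b, the catalytic beta subunit, had 284, 951 and 69.5 CPM in Tomato+ replicates 2, 3 and 5 and 876 and 132 CPM in Tomato- replicates 2 and 4, and 0 in the other 5 libraries. Atp5a1, the alpha subunit, had 409 CPM in Tomato+ replicate 3, 1354 CPM in Tomato- replicate 2 and 234 and 261 CPM in Tomato- replicates 3 and 4, and 0 elsewhere. The libraries with the highest levels of either gene were the same, Tomato+ replicate 3 and Tomato- replicate 2. Atp5c1, the gamma subunit of the rotor, had counts in 1 library of each group. Atp5e, the small epsilon subunit of the rotor, had counts in the most libraries (8, at 208 ± 252 CPM per kb). Of the genes for the membrane ring, Atp5g3 had counts in 5 libraries, Atp5g2 in 3 and Atp5g1 in none. Atp5s and Atp5sl had no count either.

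Near-identical copies limit some of these values. The coding sequences of 20 members matched another annotated gene, mostly a processed pseudogene, at 95% identity or more over at least 80% of their length. Of these 20 members, 15 (75.0%) had a count in any library, and of the 65 without such a copy 44 (67.7%) had one. How reads with several alignments were handled is not stated in the labels, so the counts of Uqcr11, Cox6c, Cox7b, Cox7c, Atp5l and the other members with a copy are uncertain. The strand setting is not stated either. Cox6c also overlaps Vps13b on the opposite strand, and reads from the 2 genes cannot be told apart without it.

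Between Tomato+ and Tomato- platelets no member passed the test. Of 1016 genes that passed the expression filter, 0% were called in either direction by edgeR's quasi-likelihood test at a Benjamini-Hochberg adjusted p under 0.05, and 0 of the 27 tested members were. The smallest adjusted p over the table rounded to 0.9996. Before adjustment, 9 genes (0.886%) and 0 members had p under 0.05. The filter passed 8 members of complex I, 0 of complex II, 3 of complex III, 10 of complex IV and 6 of complex V, and 58 members stayed untested. Of the 27, 17 estimates lay above 0 (toward Tomato+) and 10 below, with a median log2 fold change of 0.27, where 58.3% of all tested genes had an estimate above 0 and the median was 0.21. Scaling by total counts in place of TMM factors moved that median of all genes to -0.03, and 14 of the 27 members were then higher (median 0.04). Without the 3 Tomato- libraries with under 1000 detected genes, 20 of 46 tested members were higher (median -0.34), where 49.6% of 2157 genes were higher (median -0.0094). More genes passed the filter there, so the libraries and the set of members changed together.

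**Figure D4:**
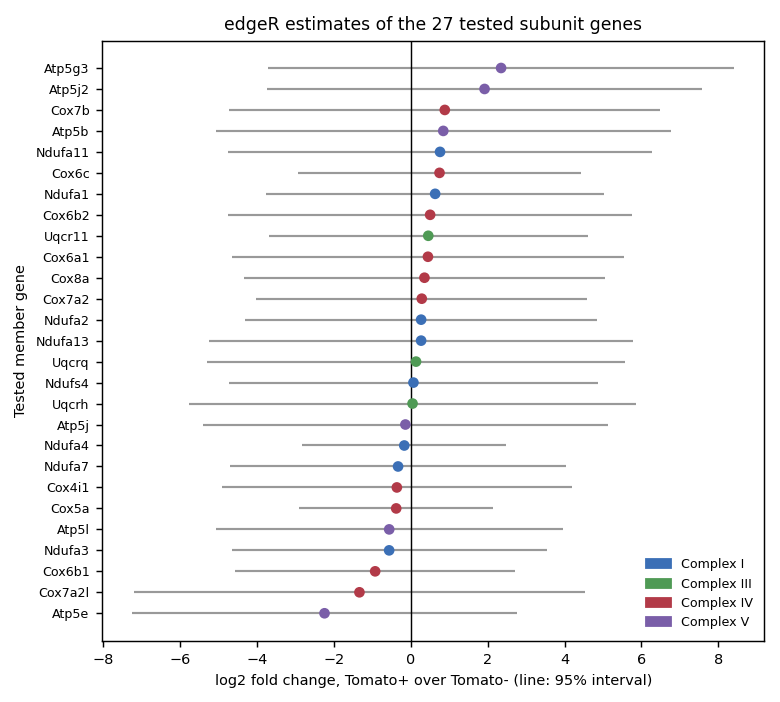
edgeR log2 fold change of Tomato+ over Tomato- (horizontal axis) for the 27 tested members (vertical axis), with 95% intervals as lines and colours for the complex. Every interval crosses 0, and the narrowest, those of Cox5a and Ndufa4, still reach beyond 2 in either direction.

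Atp5e had the smallest p of the members lower in Tomato+. Its levels were 0, 69.2, 4.92, 0 and 45.7 CPM in Tomato+ replicates 1 to 5 and 147, 351, 90.5, 36.0 and 129 CPM in Tomato-. The estimated log2 fold change was -2.25 with a standard error of 2.36 (95% interval -7.25 to 2.75), and the lowest Tomato- library lay below the 2 highest Tomato+ libraries. Cox6b1 was estimated lower in Tomato+ as well, at -0.93 (-4.57 to 2.72), as was Cox7a2l, which takes part in joining complexes III and IV, at -1.34 with a standard error of 2.76. For Cox5a the estimate was -0.38 (-2.91 to 2.15), and it was 0.12 without Tomato- replicate 5. In none of the 27 tested members did the groups separate without overlap, where 0.492% of tested genes lay wholly above and 0.0984% wholly below.

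Atp5g3, a membrane ring gene, had the smallest p among members with a higher estimate in Tomato+. It had 0, 0, 224, 58.6 and 49.1 CPM in Tomato+ and 0, 0, 45.4, 20.1 and 0 CPM in Tomato-, a log2 fold change of 2.35 (-3.72 to 8.42). Atp5j2, a subunit of the membrane sector, had 75.8, 216, 0.154, 0.494 and 84.6 CPM in Tomato+ and 0, 0, 19.96, 76.9 and 0 CPM in Tomato-, with 1.92 (-3.74 to 7.57). Both groups of each gene held libraries at or near 0. The estimates for Cox7b (0.88, standard error 2.64) and Cox6c (0.75, standard error 1.73) were within 1 standard error of 0. Intervals of this width leave several-fold differences in either direction undetectable with these libraries.

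A DESeq2 Wald test with no expression filter, added after seeing the data, called 216 of 4692 genes (4.6%) and 4 of 59 members (6.78%). Each of the 4 had counts in 2 or 3 libraries of 1 group and 0 in the other group. Uqcrb (DESeq2 adjusted p = 0.00569) and Ndufa6 (0.0218) were counted in 3 Tomato- libraries, and Ndufb7 (0.00153) in 3 and Ndufb11 (5.98e-14) in 2 Tomato+ libraries. Their mean levels in the group with counts were 25.9, 11.4, 65.2 and 19.2 CPM. The expression filter kept these genes out of the main edgeR test. In edgeR without the filter, the 4 had an adjusted p of 0.128 each and 0 of 59 members and 0 of 4692 genes were called, with 16 members and 1764 genes at an unadjusted p under 0.05. On the filtered genes, DESeq2 and limma voom called 0 members. Uqcrb and Ndufb11 also have a near-identical copy.

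The summed level of all 85 members was 3290, 4529, 4515, 4044 and 5008 CPM in Tomato+ replicates 1 to 5 (4277 ± 649, SD, n = 5) and 5262, 5266, 4201, 5482 and 6343 CPM in Tomato- (5311 ± 763). Tomato- was higher by mean, with a log2 ratio of Tomato+ over Tomato- of -0.31. The difference of the means exceeded the SD of either group, the ranges overlapped, and no test was made of this sum over chosen genes. With TMM-scaled library sizes the ratio was -0.06, and without the 3 Tomato- libraries of few genes it was -0.18. CPM is a share of a library's counts and does not measure RNA per platelet. A lower sum can come from fewer platelets carrying these transcripts, from less of them in each, or from more of other RNA. These cannot be told apart. The number of members detected per library was low where few genes were detected at all, at 27, 25, 21, 34 and 46 members in Tomato+ and 15, 12, 39, 40 and 18 in Tomato-, which was 1.23% to 2.23% of the detected genes.

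By complex, the summed levels in Tomato+ and Tomato- were 1501 ± 446 and 1573 ± 455 CPM for complex I, 258 ± 39.9 and 284 ± 217 CPM for complex III, 1799 ± 316 and 2451 ± 987 CPM for complex IV and 685 ± 545 and 981 ± 904 CPM for complex V. Complex II had 34.9 ± 78.0 and 22.01 ± 49.2 CPM. In every complex the difference of the means was smaller than the larger SD. Single libraries turned the direction for complexes I, II, III and V. For complex I the ratio lay between -0.18 and 0.066 (-0.07 with all libraries). The Tomato+ sum of complex II came from replicate 5 alone. With TMM-scaled library sizes the ratios were 0.16 for complex I, 0.049 for III, -0.21 for IV and -0.18 for V, so the direction of complexes I and III also turned with the scaling. Without Tomato- replicate 2, where complex V reached 2585 CPM, complex V had 581 CPM in Tomato- and a log2 ratio of 0.24 in place of -0.52. Without Tomato- replicate 5, complex III had 203 CPM in Tomato- and a ratio of 0.35 in place of -0.14. The share of the members' sum was 43.9% for complex IV, 32.4% for complex I, 17.3% for complex V, 5.74% for complex III and 0.61% for complex II.

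**Figure D5:**
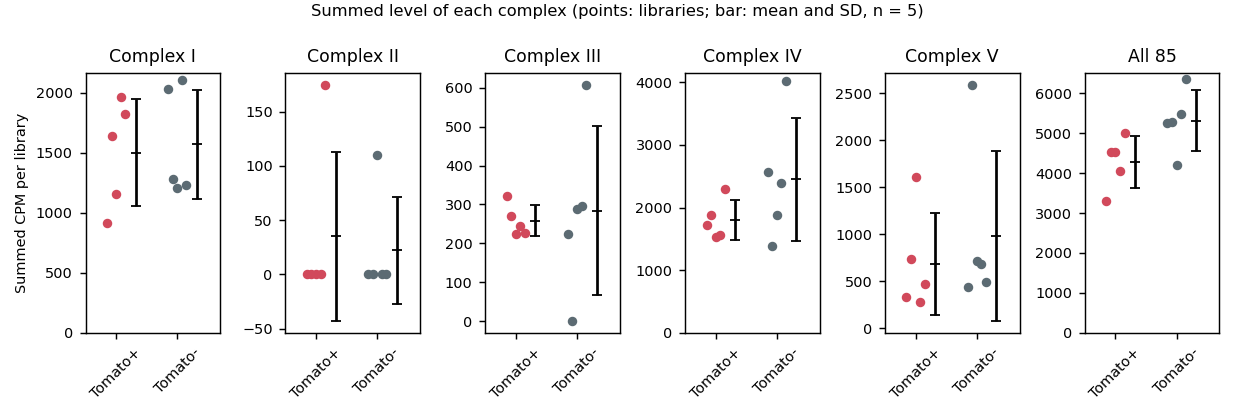
Summed CPM of each complex in every library (points) by group, with the group mean and SD of 5 libraries as bars. The Tomato+ and Tomato- points overlap in every complex, and complex V has 1 Tomato- library at 2585 CPM.

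Other mitochondrial genes were patchy too. Of 40 assembly factor rows, 16 (40.0%) had any count and 5 had counts in at least 5 libraries. Coa5, a complex IV assembly factor, was found in all 10 libraries, with means of 1007 ± 378 CPM (Tomato+) and 1148 ± 716 CPM (Tomato-). Cox17, a copper chaperone for complex IV, was found in 9, at 112 ± 90.4 and 171 ± 85.3 CPM. Of 14 genes of the tricarboxylic acid cycle, 7 had any count and none had counts in 5 or more libraries. Of 33 rows for other mitochondrial proteins, 17 had any count, among them the ATP synthase inhibitor Atpif1 (804 ± 238 and 621 ± 527 CPM) and the outer membrane channel Vdac3 (272 ± 199 and 238 ± 153 CPM) in all 10 libraries. Atpif1 was at only 0.125 CPM in Tomato- replicate 2, and Vdac3 at only 0.307 CPM in Tomato+ replicate 3, so detection there rested on very few counts. Cycs, the cytochrome c that links complexes III and IV, had 0 counts in every library. Of these lists 10 genes entered the edgeR test, 5 of the assembly factors and 5 of the other proteins, and 0 were called. In each set 4 estimates lay above 0 and 1 below, where 58.3% of all tested genes lay above 0. Those above 0 included Coa5 at 0.0013 and Coa3 at 0.055.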

How the data were processed

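Platelets were sorted by flow cytometry, and Nextera XT chemistry gave bulk libraries, per the labels' protocols. Raw counts by gene symbol were deposited for 10 libraries. Trimmomatic, FastQC, STAR, featureCounts and the build mm10 are named in the submitters' processing notes. The annotation, strand setting and treatment of multiply aligned reads are not stated in the labels. Sample numbers in the titles run in 1 order through Tomato+ and then Tomato-, so any order of handling cannot be told apart from the groups.

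Detection meant 1 count or more, and CPM used the sum of all rows. Lengths were exon unions of protein-coding transcripts in GENCODE M21 (GRCm38), and all 85 members matched. Copies were sought with blastn 2.17.0. Groups were compared with edgeR 4.0.16 (quasi-likelihood F test, robust, TMM, filterByExpr with a minimum count of 10), Benjamini-Hochberg threshold 0.05, on the whole table. On simulated data with the spread estimated from these libraries, the test called few of the genes changed by known folds, so a lack of calls says little about differences. Alternatives used limma 3.58.1 and DESeq2 1.42.0, other scalings and filters, and leaving out libraries. Totals of 5411417 to 16179973 counts set the precision, and limits from counts cover counting error only. Comparing all 45 pairs of libraries found none within sampling noise.

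Members and lists were chosen with earlier results of these data known. Named were the 3 highest members per kb in each complex, members counted in all libraries, the 4 tested members with the smallest p on each side, tissue isoforms, core catalytic subunits and, by name, members with no count. Of the members this rule covers, 1 is not reported here. Other genes named (Ndufa2, Ndufs3, Ndufs4, Ndufv2, Sdhc, Uqcrc1, Atp5g2 and those in the DESeq2 result among them) were chosen after their values were seen.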

Additional observations from a re-analysis of the deposited data

Results flagged for a closer look

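In 42 groups of 5 libraries, the gap between an extreme library and its neighbour was compared with the group's range, and chance alone would mark about 1 in 20 if values were normally distributed. Many groups held several exact zeros, for which this rate does not hold, and a group with 4 zeros is always marked. All 10 values marked were the highest of their group. In Tomato+ replicate 5, complex II summed to 174.5 CPM with 4 members detected, where the other 4 libraries had 0. In Tomato- replicate 3 it summed to 110.04 CPM with 1 member detected, again against 0 elsewhere. In each library the sum and the number of members are 2 readings of the same event.

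Complex V summed to 2585 CPM in Tomato- replicate 2, where the group's median was 681 CPM. In Tomato+, Atp5g3 reached 224 CPM in replicate 3 (median 49.1) and Cox7a2l 96.8 CPM in replicate 2 (median 6.45). In Tomato-, with medians of 0, Cox7a2l reached 304 CPM in replicate 2, Atp5j2 76.9 CPM in replicate 4 and Cox7b 62.2 CPM in replicate 4. Their causes were not tested.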

How the results depend on the processing

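No setting of edgeR called a member or any gene. DESeq2 and limma voom on the filtered genes called 1 gene each and 0 members, and DESeq2 without the filter called 216 genes and 4 members. Same-numbered libraries showed no close resemblance (correlations -0.11 to 0.12, 3 of 10 libraries closest to their own number). Levels swung widely inside each group, so this check cannot decide whether same-numbered libraries share an animal. With the replicate block, 20 of 27 members (74.1%) and 68.4% of all tested genes had a higher estimate, and 0 were called.

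The signs of 4 named fold changes turned, none of them called, and the cause was not tested. Cox5a was 2.89 in limma voom, 0.087 with the replicate block, 0.027 without the 3 Tomato- libraries of few genes, and -0.73 to 0.12 leaving out each library. Cox7a2l was 0.93 (limma voom), 1.49 (replicate block) and -3.90 to 0.18 leaving out each library. Cox7b was -0.51 without the 3 libraries, and Ndufa4 ranged from -0.36 to 0.14 leaving out each library.

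Leaving out each library gave 1 to 4 detected complex II members and 3 to 6 members found in every library, and 11 without the 3 libraries, where fewer libraries have to hold a count. Complex I had 79.2 CPM per kb with median transcript lengths and 46.1 with Ndufa4 counted in complex IV, and complex V 13.3 with medians over libraries. The order of the complexes by mean level per kb held under each setting run except the move of Ndufa4, which put complex III above complex I. The order by median member was not the order by mean.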
